A study of Mus musculus with 20 samples.

Results

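The genes described here are the 6 subunits of the replicative helicase, Mcm2 to Mcm7, and 4 further genes. Gmnn, Cdt1 and Cdc6 act in the licensing of replication origins, and Pcna acts at the replication fork. They were chosen by name, and each was found as 1 row of a table of read counts per 3′ UTR, so the set makes up 10 of 20586 rows. The series is an RNA immunoprecipitation (IP) sequencing study of CPEB4, a protein that binds cytoplasmic polyadenylation elements in 3′ UTRs and regulates the poly(A) tail and translation of its target mRNAs. CD8 T cells were purified from spleen and lymph nodes of C57BL/6 wild-type (WT) animals and of Cpeb4 knockout (KO) animals. All groups share an activation for 48 h with anti-CD3 at 1 µg/ml, anti-CD28 at 1 µg/ml and IL-2 at 20 ng/ml. Each genotype gave an input, from which poly(A) RNA was isolated before 12 PCR cycles, and an IP with a homemade anti-CPEB4 antibody, which had no poly(A) step and 7 cycles. The labels give no age, no number of pooled animals and no description of the deleted part of Cpeb4.

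Replication origins are licensed in G1 phase, when the origin recognition complex, Cdc6 and Cdt1 load the ring of Mcm2 to Mcm7 onto DNA. Geminin, the product of Gmnn, binds Cdt1 and blocks a further loading during S and G2 phase, and the loaded ring becomes the motor of the replication fork once Cdc45 and the GINS complex join it. PCNA is the sliding clamp that holds DNA polymerases on their template and brings the ubiquitin ligase that destroys Cdt1. Naive T cells rest outside the cycle, and stimulation through the T cell receptor, CD28 and IL-2 brings them into it. Transcription of many of these genes at the entry into S phase is driven by E2F factors, whose binding sites have a run of T followed by C and G.

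The promoters of these genes are shown first, because 8 of the 10 have an entry in the RefSeq table of GRCm38.p6 promoters, which holds 250 bases before and 50 bases after each start. Promoters were searched on both strands for 4 E2F-type motifs of 8 bases, TTTCGCGC, TTTGGCGC, TTTCCCGC and TTTGCCGC, where matches may overlap. A match was present in 6 of the 8 genes with an entry, against 704 of 27025 genes in the whole table (2.60%), and in 6 of their 9 promoters against 744 of 32851 (2.26%). The numbers of matches were 2 in Mcm3, 2 in Mcm5, 3 in Mcm6, 2 in Mcm7, 1 in Cdt1 and 1 in Cdc6. Mcm2 and Pcna held none of these letters in the window, and Mcm4 and Gmnn were not looked up elsewhere. One stretch of 30 bases per gene is printed 5′ to 3′ on the strand of the gene, with the motif in capitals.
Mcm3: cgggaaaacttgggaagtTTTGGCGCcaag
Mcm5: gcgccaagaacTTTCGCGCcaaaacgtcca
Mcm6: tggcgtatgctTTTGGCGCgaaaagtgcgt
Mcm7: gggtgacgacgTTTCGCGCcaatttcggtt
Cdt1: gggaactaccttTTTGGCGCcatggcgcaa
Cdc6: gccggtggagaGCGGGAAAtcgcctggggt
The capitals of Cdc6 are the reverse complement of TTTCCCGC. The stretches lie at chr1:20820263-20820292 on the minus strand (Mcm3), chr8:75109345-75109374 on the plus strand (Mcm5), chr1:128359797-128359826 on the minus strand (Mcm6) and chr5:138171849-138171878 on the minus strand (Mcm7). Those of Cdt1 and Cdc6 lie at chr8:122568035-122568064 and chr11:98908002-98908031, both on the plus strand. A match is a string of letters and not a measured binding site.

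The 20 sequencing runs of the series come from 12 libraries, and only the first 9 columns, which hold runs of 6 libraries, carry values that belong to the row names beside them. Among neighbouring rows that share a UTR start, 25 of 49 held identical counts in these 9 columns and 0 of 60 did in the last 11, which were not used. The 9 runs fell into 2 sets by the share of a single UTR, that of Lars2, which encodes the mitochondrial leucyl-tRNA synthetase. In 5 runs, called Lars2-rich here, it took 34.8% to 50.1% of 364113 to 486758 counts, and in the other 4 runs it took 1.16% to 5.40% of 2605101 to 4182830 counts. The sets cut across the labels: the Lars2-rich runs are WT input D1 batch 2, KO input D1 batch 2, WT IP D1 batch 2, WT input RIP8 batch 1 and KO input RIP8 batch 2, and the others are WT IP D1 batch 3, KO IP D1 batch 2, KO IP D1 batch 3 and WT input RIP8 batch 2. Runs of the libraries labelled WT IP D1 and WT input RIP8 stand in both sets, so "the run labelled" is meant throughout. CD8 T cell markers were present in every run, with a summed level of 2368 to 2958 CPM in the Lars2-rich runs and 4252 to 9552 CPM in the others. Markers of other cells were lower in sum, over lists of different size. The 11 B cell genes had 56.7 to 118 CPM with Pax5 at 0, and 6 CD4 T cell genes 66.5 to 177 CPM with Il4 at 0. The 10 myeloid genes had 18.9 to 106 CPM, with S100a8, S100a9, Adgre1 and Cd14 at 0. The 7 NK cell genes had 31.0 CPM at most and 6 stromal genes 24.5 to 76.6 CPM. Single genes of these lists were not all near 0. The B cell, CD4 T cell, myeloid and stromal genes with most counts were H2-Ab1, Zbtb7b, Cst3 and Pecam1. In the Lars2-poor runs these had 29.8 to 73.4, 25.7 to 73.0, 47.9 to 74.7 and 28.1 to 75.3 CPM. As numbers these were like the 31.3 to 69.0 CPM of Gmnn in the same runs, but CPM is not scaled to UTR length, so amounts are not compared. The Cpeb4 UTR had 22 and 36 counts in the 2 KO input runs and 24 in WT input D1, and since the deleted part of the gene is not described it does not check the KO label.

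Levels are in CPM: each count was divided by the run's total without the Lars2 row and multiplied by 1000000. A count was worth 3.15 to 5.20 CPM in the Lars2-rich runs and 0.245 to 0.406 CPM in the others, so low levels are coarse in the former. Intervals are 95% Poisson or exact binomial intervals and cover counting error only. CPM is not scaled to UTR length, so levels are compared between runs and not between genes. Depth and the Lars2 share move together across the 9 runs, and their parts in the differences below cannot be told apart. In bulk RNA, fewer cells with a transcript and less of it per cell cannot be told apart either.

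Summed over the 10 genes, the level was 635 to 895 CPM in the Lars2-rich runs and 1217 to 2380 CPM in the other runs, without overlap. The lowest sum was that of KO input D1 batch 2 and the highest that of WT input RIP8 batch 2. Of the 10 genes, 7 were lower in all 5 Lars2-rich runs than in all 4 others, namely Mcm2, Mcm5, Mcm6, Mcm7, Gmnn, Cdt1 and Pcna, against 24.3% of the 8284 rows with at least 200 counts over the 9 runs. None of the 10 was higher in all 5, against 21.3% of rows. All 10 genes passed that minimum, which their Lars2-poor runs alone would have met. For Mcm2, Mcm5 and Gmnn the levels did not overlap, but the counting intervals of the nearest runs of the 2 sets did. The ratio of pooled CPM in the Lars2-poor runs over the Lars2-rich runs had a median of 2.94 over the 10 genes and 1.06 over all rows. With TMM scaling of the runs these medians were 3.98 and 1.44. Mcm3 then joined the genes without overlap, which made 8 of 10 lower in all 5 against 34.8% of rows and 0 higher against 14.6%. The split into 2 sets was read from the data, so these values describe the runs and carry no test.

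**Figure D1:**
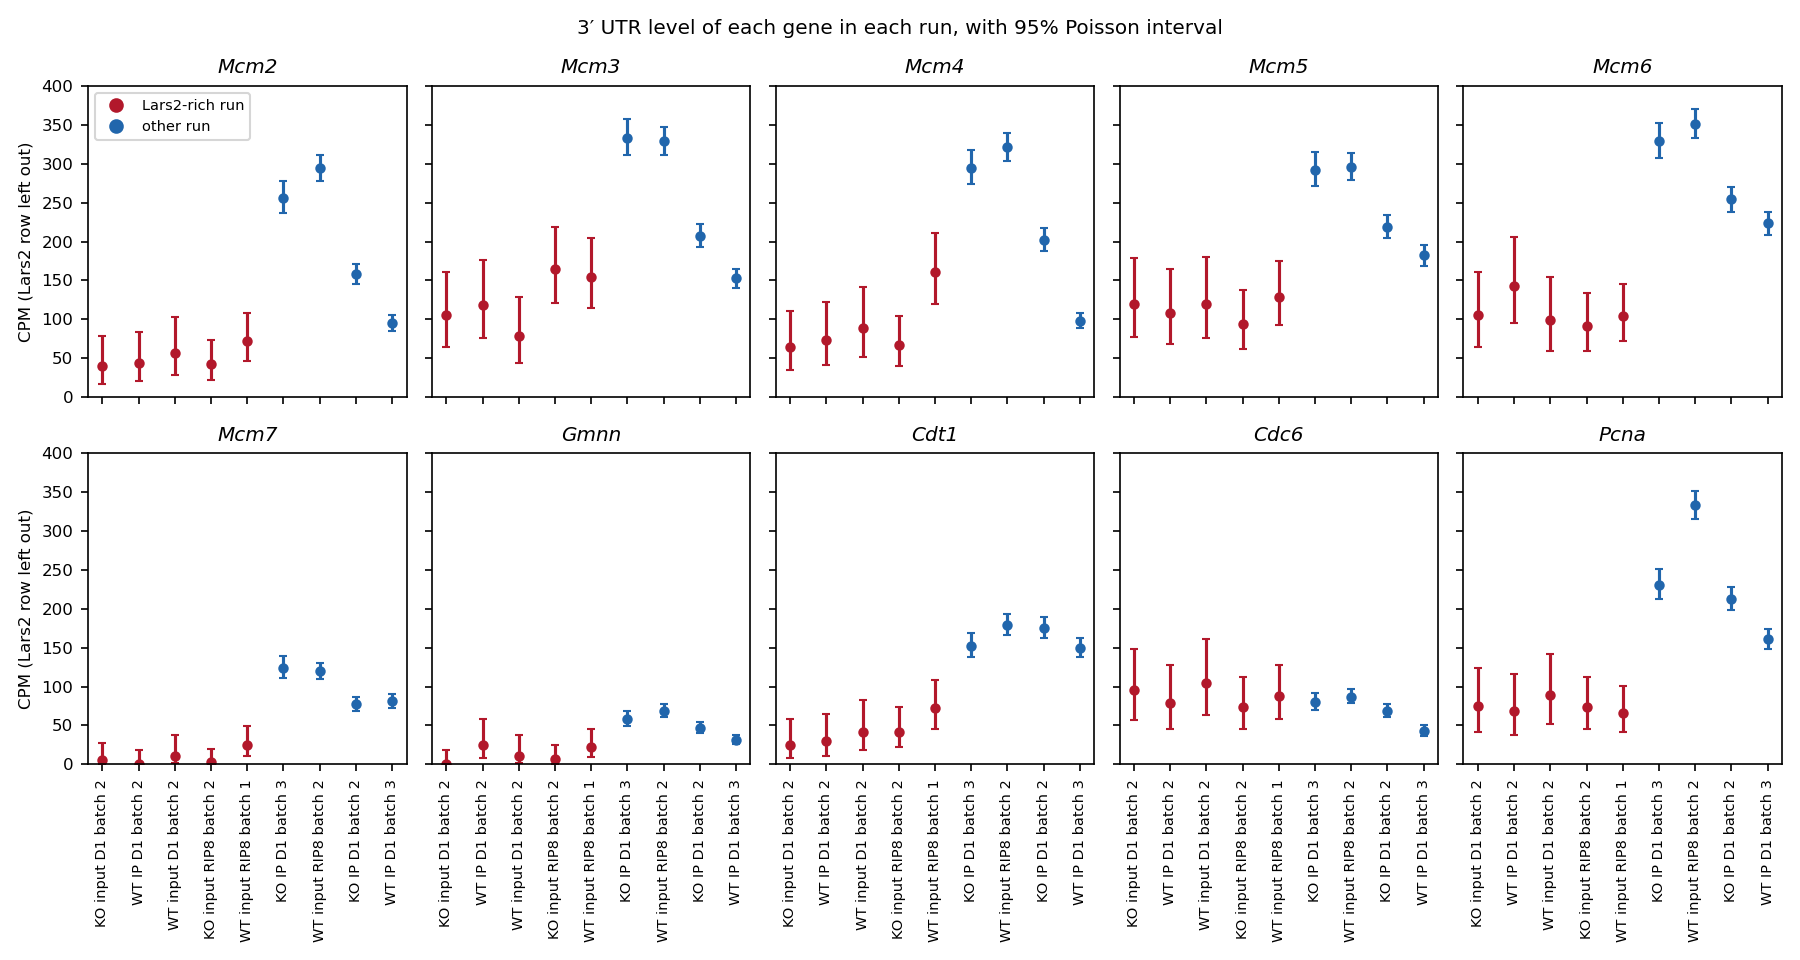
CPM of each gene (y axis, Lars2 row left out) in each of the 9 runs (x axis, ordered by falling Lars2 share); points are levels and bars 95% Poisson intervals, with Lars2-rich runs in red and the other runs in blue. The Mcm7 points of the red runs lie at 25.2 CPM or less and those of the blue runs at 77.1 CPM or more, whereas the Cdc6 points of both colours overlap.

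Mcm7, a helicase subunit whose row starts at chr5:138164583 (mm10, transcript ENSMUST00000000505), had the widest gap. It had 2 counts in WT input D1 (10.4 CPM), 1 in KO input D1 (5.00 CPM), 0 in WT IP D1 batch 2, 8 in WT input RIP8 batch 1 (25.2 CPM) and 1 in KO input RIP8. In the Lars2-poor set, WT IP D1 batch 3 had 323 counts of it (80.9 CPM), KO IP D1 had 296 in batch 2 (77.1 CPM) and 306 in batch 3 (124 CPM), and WT input RIP8 batch 2 had 489 (120 CPM). The upper limit of 49.7 CPM in WT input RIP8 batch 1, the highest of the Lars2-rich runs, lay below the lower limit of 68.6 CPM in KO IP D1 batch 2, the lowest of the others. Pooled, the ratio was 9.81. The gene hosts the microRNAs Mir25, Mir93 and Mir106b in an intron and overlaps Ap4m1 at its other end, and the strand setting of the counting is not given in the sources used here.

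Mcm2, another subunit of the ring (chr6:88883475, ENSMUST00000058011), had 40.0 to 72.5 CPM in the Lars2-rich runs, on 8 to 23 counts each. Of the other runs, WT IP D1 batch 3 had 95.0 CPM, KO IP D1 had 158 CPM (batch 2) and 256 CPM (batch 3), and WT input RIP8 batch 2 had 294 CPM. The sets did not overlap, and within the second set WT IP D1 batch 3 was low. The interval of WT input RIP8 batch 1 (45.9 to 109 CPM) overlapped that of WT IP D1 batch 3 (85.6 to 105 CPM). Across the 9 runs Mcm2 followed the mean of the other 9 genes most closely, with a Pearson r of 0.989 on log2 values, and the runs share depth and Lars2 share.

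Mcm5 (chr8:75127325, ENSMUST00000164309) and Mcm6 (chr1:128331591, ENSMUST00000027601), 2 further ring subunits, also had sets without overlap. Mcm5 had 94.6 to 129 CPM in the Lars2-rich runs and 182 CPM in WT IP D1 batch 3, 219 and 293 CPM in batches 2 and 3 of KO IP D1 and 296 CPM in WT input RIP8 batch 2. Mcm6 had 91.1 to 143 CPM and then 223, 254, 329 and 351 CPM in the same order of runs. The Mcm5 intervals of WT input RIP8 batch 1 (92.7 to 175 CPM) and WT IP D1 batch 3 (169 to 196 CPM) overlapped. Both pooled ratios, 2.13 for Mcm5 and 2.68 for Mcm6, were below that of Mcm7.

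Mcm3 (chr1:20802974, ENSMUST00000053266) and Mcm4 (chr16:15623897, ENSMUST00000023353) overlapped between the sets, Mcm3 without and Mcm4 also with TMM scaling. For Mcm3 the 2 highest Lars2-rich runs, KO input RIP8 with 165 CPM and WT input RIP8 batch 1 with 154 CPM, stood beside WT IP D1 batch 3 with 153 CPM, while the other 3 Lars2-poor runs had 207 to 334 CPM. For Mcm4, WT input RIP8 batch 1 with 161 CPM stood above WT IP D1 batch 3 with 98.5 CPM, while the remaining runs had 65.0 to 88.5 CPM on the Lars2-rich side and 202 to 321 CPM on the other. Their pooled ratios were 1.91 and 2.32. Intervals of Mcm4 in WT input RIP8 batch 1 (120 to 211 CPM) and in KO input RIP8 (40.1 to 104 CPM), both Lars2-rich, did not overlap.

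The loaders of the ring went apart. Cdt1, which brings the helicase to the origin (chr8:122572655, ENSMUST00000006760), had 41.6 CPM in WT input D1, 25.0 CPM in KO input D1, 29.6 CPM in WT IP D1 batch 2, 72.5 CPM in WT input RIP8 batch 1 and 42.0 CPM in KO input RIP8. Its level was 149 CPM in WT IP D1 batch 3, 175 and 153 CPM in batches 2 and 3 of KO IP D1 and 179 CPM in WT input RIP8 batch 2. The 4 Lars2-poor runs thus lay close together for Cdt1, at 166 to 221 CPM with TMM scaling, where WT IP D1 batch 3 was the highest of them and not, as here, the lowest. Cdc6, the ATPase that loads the ring together with the origin recognition complex (chr11:98921206, ENSMUST00000092706), had 104, 95.0, 79.0, 88.2 and 73.6 CPM in the Lars2-rich runs in the order given for Cdt1. Its Lars2-poor values were 43.1 CPM for WT IP D1 batch 3, 69.0 and 79.9 CPM for batches 2 and 3 of KO IP D1 and 87.1 CPM for WT input RIP8 batch 2. Cdc6 was the member whose pooled ratio, 0.793, was below 1, although it was 1.07 with TMM scaling, and its r with the mean of the other 9 genes was −0.29, where those genes had 0.846 to 0.989.

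Gmnn, the inhibitor of Cdt1 (chr13:24751845, ENSMUST00000006898), had 2, 0, 5, 7 and 2 counts in WT input D1, KO input D1, WT IP D1 batch 2, WT input RIP8 batch 1 and KO input RIP8, or at most 24.7 CPM. Its Lars2-poor values were 31.3 CPM for WT IP D1 batch 3, 46.9 and 58.0 CPM for batches 2 and 3 of KO IP D1 and 69.0 CPM for WT input RIP8 batch 2. The 0 in KO input D1 had an upper Poisson limit of 18.4 CPM. The 24.7 CPM in WT IP D1 batch 2, on 5 counts, had an interval of 8.01 to 57.6 CPM. That interval held the 26.1 to 37.3 CPM of WT IP D1 batch 3, and the ratio of these 2 runs was 1.27 (0.530 to 3.98). The gap between these 2 nearest runs was thus within counting error. Pooled over each set, Gmnn had 13.4 CPM (7.64 to 21.7, counting error only) in the Lars2-rich runs and 50.8 CPM in the others. Pcna, the clamp (chr2:132249162, ENSMUST00000028817), had 66.2 to 88.5 CPM in the Lars2-rich runs, the tightest range of the genes without overlap, and 161 CPM in WT IP D1 batch 3, 212 and 231 CPM in batches 2 and 3 of KO IP D1 and 333 CPM in WT input RIP8 batch 2. The Pcna row begins 124 bases outside the RefSeq gene and was named by its place in the alphabetical order of the rows.

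Proportions within a run do not depend on the run's total. Of all counts in Mcm2 to Mcm7, Mcm7 took 12 of 611 in the Lars2-rich runs, or 1.96% (95% exact interval 1.02% to 3.41%), and 1414 of 18625 in the others, or 7.59% (7.22% to 7.98%). Its share was 0% to 3.90% in single Lars2-rich runs and 6.90% to 9.72% in single other runs. Mcm3 took 25.5% (22.1% to 29.2%) in the first set and 19.2% (18.6% to 19.7%) in the second, and Mcm2 took 10.3% (8.01% to 13.0%) and 15.2% (14.6% to 15.7%). In single runs both overlapped between the sets, with 17.2% to 35.6% against 18.3% to 20.5% for Mcm3 and 9.09% to 12.6% against 11.4% to 17.2% for Mcm2. The shares of Mcm4, Mcm5 and Mcm6 had overlapping intervals in the 2 sets.

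Cdc6 made up 12.0% to 18.7% of the counts in Cdc6 plus Mcm2 to Mcm7 in the Lars2-rich runs and 4.67% to 5.82% in the others. The lowest limit in the first set, 8.14% in WT input RIP8 batch 1, lay above the highest limit in the second, 6.54% in KO IP D1 batch 2. Gmnn made up 17.3% of Gmnn plus Cdt1 counts in WT IP D1 batch 3 (14.6% to 20.3%), 21.1% and 27.6% in batches 2 and 3 of KO IP D1, and 27.8% in WT input RIP8 batch 2 (25.1% to 30.7%). In the Lars2-rich runs this share rested on 5 to 30 counts a run, with limits too wide to place it.

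**Figure D2:**
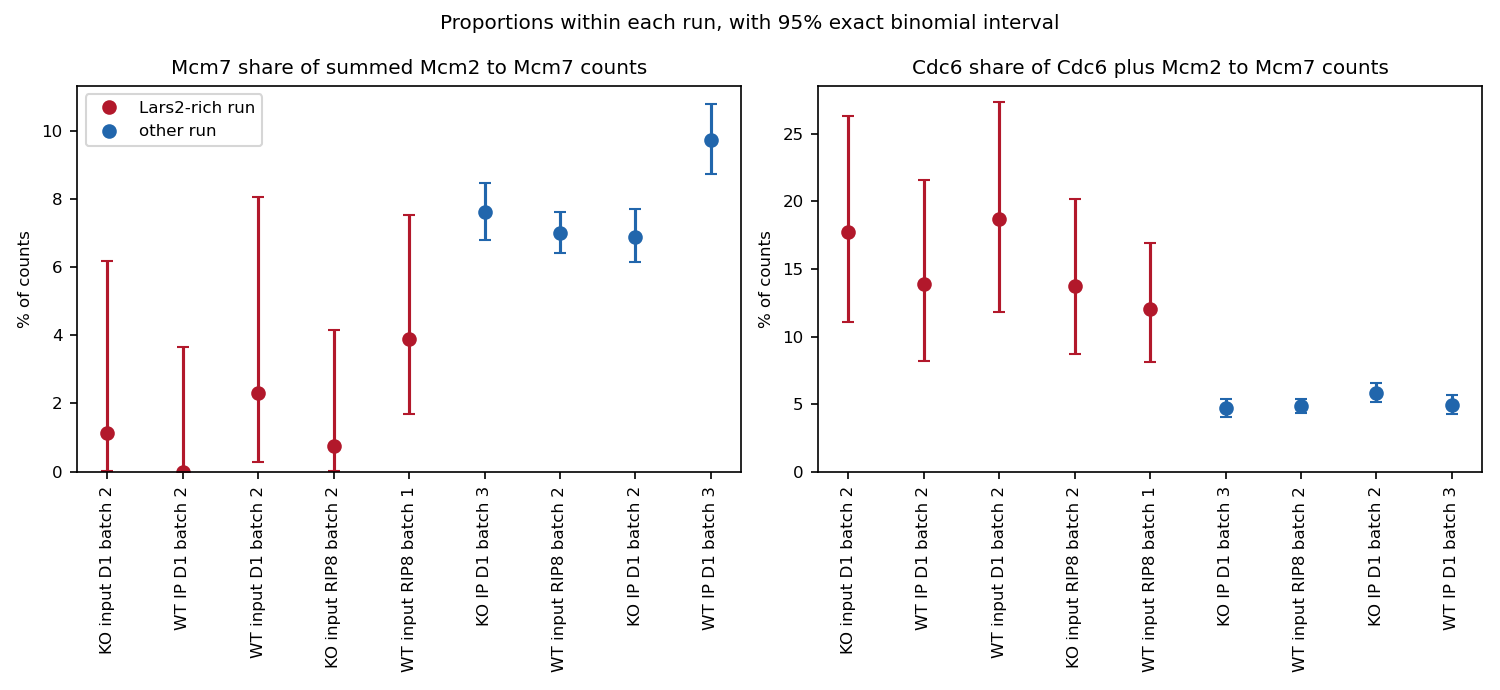
Left, the share of Mcm7 in the summed counts of Mcm2 to Mcm7, and right, the share of Cdc6 in the counts of Cdc6 plus Mcm2 to Mcm7 (y axes, % of counts), in each of the 9 runs ordered by falling Lars2 share; bars are 95% exact binomial intervals, red marks Lars2-rich runs and blue the others. Mcm7 lies at 3.90% or less in the red runs and 6.90% or more in the blue runs, and Cdc6 at 12.0% or more and 5.82% or less.

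Runs of the same library differed. In the library labelled WT IP D1, the summed level of the 10 genes was 1.76 times as high in batch 3 as in batch 2 (95% exact interval of the ratio 1.49 to 2.10). There Cdt1 was 5.04 times as high (2.30 to 13.8), whereas Cdc6 had a ratio of 0.546 (0.327 to 0.976). Mcm7, with 323 against 0 counts, had a ratio of 5.47 if batch 2 is given a floor of 3 counts. The lower 95% limit of that ratio on the counts themselves was 4.42. In the library labelled WT input RIP8 the sum was 2.66 times as high in batch 2 as in batch 1 (2.36 to 3.00), with 5.03 for Pcna (3.28 to 8.15), 4.75 for Mcm7 (2.39 to 11.1) and 0.988 for Cdc6. In these 2 libraries the run with the higher sum was the Lars2-poor one. In the library labelled KO IP D1, both of whose runs were Lars2-poor, the ratio of batch 3 over batch 2 was 1.33 (1.28 to 1.38), with 1.62 for Mcm2 and 0.871 (0.766 to 0.990) for Cdt1. The median ratio over all rows with at least 200 counts was 0.857 for WT IP D1, 1.14 for WT input RIP8 and 1.03 for KO IP D1. After TMM scaling the ratios of the sums were 3.07, 3.08 and 1.26 for these libraries in turn. The medians over all rows were then 1.38, 1.29 and 0.984. Scaled in this way, Cdc6 in the library labelled WT IP D1 stood at 63.9 (batch 3) against 67.3 (batch 2). The size of its fall there thus depended on the scaling.

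Differently labelled runs with a like Lars2 share were then set side by side, with 1 run on each side and so no replicate check. Pairs whose batch numbers differ also cross batches, and there batch and label cannot be told apart. Among the Lars2-rich D1 runs, the summed level in KO input over WT input was 0.910 (0.708 to 1.17), and in WT IP batch 2 over WT input it was 0.991 (0.776 to 1.26). In both, the interval held 1 for 10 of the 10 genes, and 47.4% and 46.8% of all rows with at least 200 counts had a ratio above 1. In KO input RIP8 batch 2 over WT input RIP8 batch 1 the ratio was 0.736 (0.609 to 0.888). Mcm4, with 0.414 (0.231 to 0.714), was the 1 gene whose own interval did not hold 1, where 49.4% of rows were below 1. Among the Lars2-poor runs, WT IP D1 batch 3 was lower than KO IP D1 batch 3, with 0.566 (0.544 to 0.588) for the sum and 9 of 10 intervals below 1, the exception being Cdt1 with 0.979. It was also lower than KO IP D1 batch 2, at 0.751 (0.723 to 0.779), where Mcm7 with 1.05 was the exception, and lower than WT input RIP8 batch 2, at 0.511, with no exception. For these 3 pairs the medians over all rows were 0.753, 0.779 and 0.732, and 63.4%, 68.8% and 64.7% of rows were below 1, so that the sum of 0.751 against KO IP D1 batch 2 lay close to the median of 0.779. With TMM scaling the ratios of the sums were 0.770, 0.973 and 0.700, beside medians over all rows of 1.03, 1.01 and 1.00, and 9, 6 and 9 of the 10 genes were below 1. KO IP D1 batch 3 over WT input RIP8 batch 2 gave 0.904 (0.874 to 0.935), with Mcm2, Cdt1 and Pcna (0.694) below 1 and the other 7 intervals holding 1, where 55.3% of rows were below 1. With TMM scaling that ratio of sums was 0.909.

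The comparisons of the design were fitted with edgeR's quasi-likelihood test over 11496 rows in 6 libraries, after the runs of a library had been summed. The libraries are 2 each of WT input and KO input and 1 each of WT IP and KO IP, so the spread is estimated from the inputs, on 2 residual degrees of freedom, and the IP libraries are assumed to vary like them. No label ties a library to an animal, so the spread behind each p-value is that between these libraries and may be technical. All 10 genes were tested. In each of the 5 comparisons, the last of them the interaction of WT IP over WT input against KO IP over KO input, 0 of 10 passed an adjusted p of 0.05 (Benjamini-Hochberg over all rows), and 0% of all rows did. Limma voom called 0 of the 10 as well. DESeq2 called 0 of those to which it gave an adjusted p, which were 10 in the interaction and in WT IP against KO IP, 9 in KO IP against KO input, 4 in WT IP against WT input and 0 in KO input against WT input. At an unadjusted p under 0.05 edgeR had 124 rows in the interaction, 33 in WT IP against KO IP, 878 in WT IP against WT input, 1723 in KO IP against KO input and 600 in KO input against WT input.

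KO IP against KO input had the 10 genes above 0, with a median log2 fold change of 1.98, against 0.20 for all rows (without scaling factors 9 were above 0, with 1.71 against −0.08). The values were 4.77 ± 1.31 (SE) for Mcm7, 3.92 ± 1.37 for Gmnn, 2.55 ± 0.93 for Cdt1, 2.53 ± 0.95 for Mcm2 and 2.13 ± 0.88 for Mcm4, and these 5 had an unadjusted edgeR p under 0.05, against 10.2% of all rows that were higher at that threshold. The lowest adjusted p was 0.259 by edgeR, and Cdc6 had 0.08 ± 0.77. Mcm7 rested on 602 counts in KO IP against 2 in KO input, a pooled CPM ratio of 23.2 (6.39 to 192), and Gmnn on 323 against 2. Leaving out 1 input library moved Gmnn to between 3.08, without KO input D1, and 10.2, without KO input RIP8, a fit in which the group of KO inputs has 0 counts of it and the fold change depends on the prior count. The library labelled KO IP was Lars2-poor in both runs and both libraries labelled KO input were Lars2-rich.

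KO input against WT input had the 10 genes below 0, with a median of −1.68 against −0.10 for all rows. The fold changes were −4.16 ± 1.24 for Mcm7, −3.52 ± 1.28 for Gmnn, −2.21 ± 0.85 for Mcm2, −1.83 ± 0.83 for Cdt1 and −1.76 ± 0.78 for Mcm4, which had an unadjusted edgeR p under 0.05 where 4.8% of all rows were lower at that threshold. The lowest adjusted p was 0.953 by edgeR, and Cdc6 had −0.25 ± 0.65. This comparison shares both KO input libraries with the preceding one. The high side rested on WT input RIP8 batch 2, the Lars2-poor run: without the library labelled WT input RIP8 the range was −1.31 for Gmnn to 0.84 for Mcm3, and Mcm7 had −1.29. Without KO input RIP8 Gmnn was −9.83, again against 0 counts.

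WT IP against WT input gave a median of 0.05 against −0.10 for all rows, with 6 genes above 0 and 4 below, from −0.60 ± 0.91 for Mcm4 to 0.82 ± 0.89 for Cdt1. Without scaling factors 2 genes were above 0 and 8 below, with a median of −0.41 against −0.61 for all rows. The sign depended on which WT input library was kept. Without WT input D1 the comparison had 1 gene above 0, with 0.15 for Cdt1, −0.14 for Mcm7, −1.18 for Mcm2 and −1.26 for Mcm4. Without WT input RIP8 it had 9 above 0, with 2.32, 3.42, 1.23 and 0.67 for the same genes, and 8 of the 10 lay on opposite sides of 0 in these 2 fits. In the fit of all 6 libraries the lowest adjusted p was 0.771 by edgeR. WT IP against KO IP gave a median of −0.27 against −0.01, with 8 genes below 0, from −0.97 ± 1.03 for Mcm4 to 0.11 ± 1.04 for Cdt1. With RLE factors 5 of the 10 were below 0 and without factors 10. In these 2 comparisons 0 of the 10 genes had an unadjusted edgeR p under 0.05. The interaction asks for mRNAs whose precipitation needs CPEB4. It had the 10 genes below 0, with a median of −1.74 against −0.27 for all rows. It ran from −4.15 ± 1.76 for Mcm7, the 1 gene with an unadjusted edgeR p under 0.05 (0.818% of all rows were lower at that threshold), to −0.63 ± 1.08 for Cdc6. Each adjusted p was 1.00 by edgeR. Without WT input RIP8 the interaction was −1.28 for Mcm7 and −1.71 for Gmnn, without WT input D1 it was −4.92 and −4.57, and without KO input RIP8 it was −10.2 for Gmnn, on 0 counts in KO input. Each of these values is the sum of that gene's WT IP against KO IP and KO input against WT input values, so it shares all their libraries.

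Leaving out 1 library changed the calls. Each such fit has 5 libraries and 1 residual degree of freedom, so its spread comes from the 1 group that still has 2 libraries, which is the KO inputs when a WT input library is left out, and the lone libraries are assumed to vary like it. Without the library labelled WT input D1, edgeR called Mcm2, Mcm4, Mcm7, Gmnn, Cdt1 and Pcna lower in the interaction, where 6.2% of rows were called lower. In the same fit it called 8 of the 10 genes higher in KO IP against KO input (15.6% of rows) and 9 lower in KO input against WT input (12.3% of rows), Cdc6 being the exception in both and Mcm3 in the first. That fit leaves 1 WT input library, whose counts come mostly from a Lars2-poor run, against 2 Lars2-rich KO input libraries. Other fits below drop the run WT input RIP8 batch 2, alone, with its library or by a change of runs. Every input run left in them was Lars2-rich. Their IP counts came wholly or mostly from Lars2-poor runs. In those fits IP over input follows the Lars2 split, and the parts of label and Lars2 share cannot be told apart. Without the library labelled WT input RIP8, Mcm6, Mcm7 and Cdt1 were called higher in WT IP against WT input (20.1% of rows) and 8 of 10 in KO IP against KO input (20.9% of rows). Without either library labelled KO input, 0 rows were called. With no filter on low counts, edgeR called Mcm7 and Gmnn higher in KO IP against KO input (3.37% of rows) and Mcm7 lower in KO input against WT input (0.568% of rows). With the other run of each library it called 6 genes higher in WT IP against WT input (26.6% of rows) and 8 in KO IP against KO input (13.6% of rows). Without the run WT input RIP8 batch 2 it called 4 and 8 (22.7% and 16.6% of rows), and with a replicate block 7 in KO IP against KO input (12.1% of rows).

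**Figure D3:**
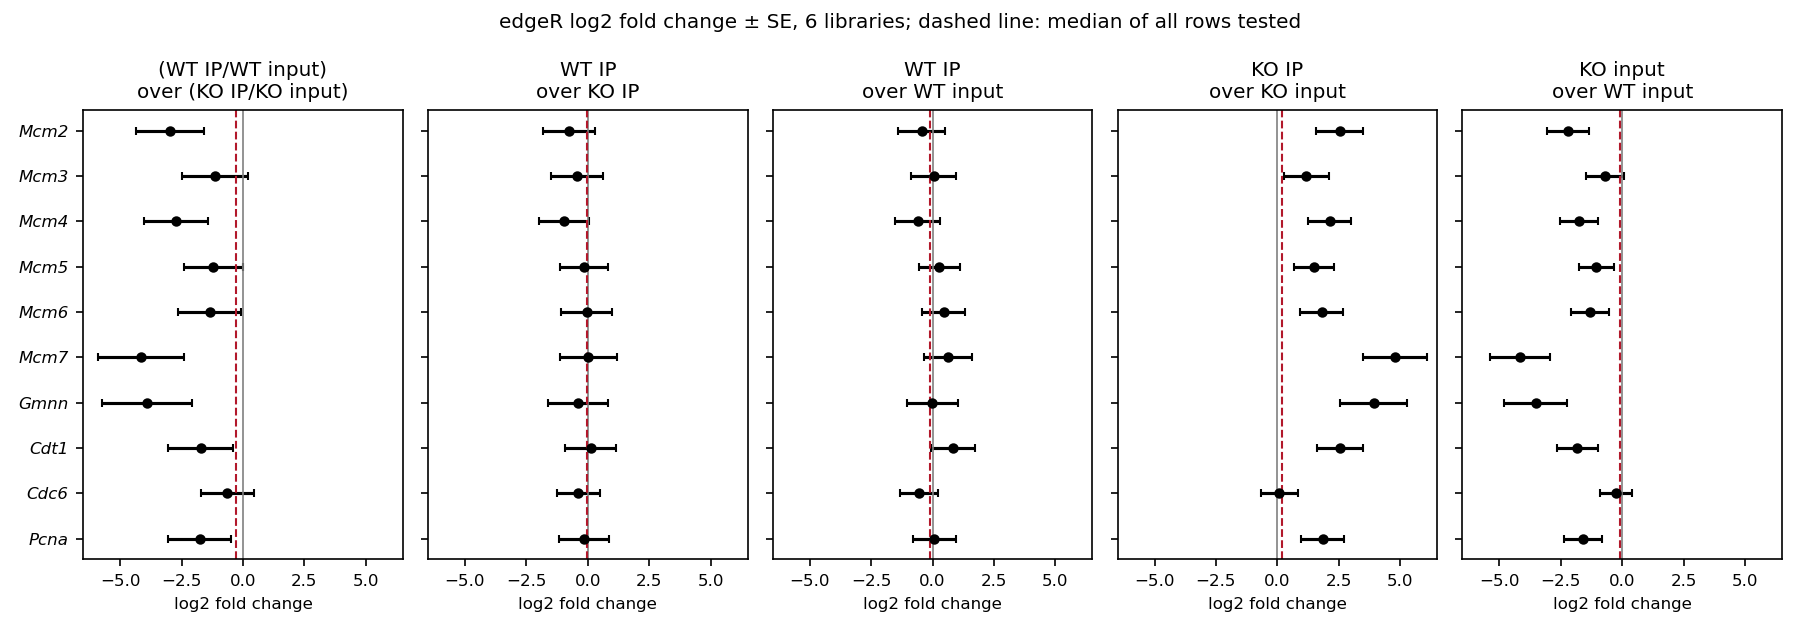
edgeR log2 fold change (x axis) of the 10 genes (y axis) in the 5 comparisons, with bars of 1 SE from 6 libraries; the solid line marks 0 and the dashed line the median of all 11496 rows tested. The points of KO IP over KO input run from 0.08 to 4.77 and those of KO input over WT input from −4.16 to −0.25, while those of WT IP over KO IP lie within 1 log2 unit of 0.

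The wider replication genes were followed in 6 lists, in the same 2 sets of runs and with the same count minimum. The 3 genes with most counts are named in each, and the other genes named were chosen after their values were seen, for their lack of overlap. Of the origin recognition complex, which marks origins, 5 of 6 genes passed the minimum, with a median ratio of Lars2-poor over Lars2-rich runs of 1.15. In this and the following lists, counts without overlap are to be read beside 24.3% of all rows lower and 21.3% higher in all 5 Lars2-rich runs. Of these 5 genes 0 were lower and 1, Orc4, was higher in all 5 Lars2-rich runs, at 83.9 to 137 CPM against 38.8 to 50.3 CPM. The ratios of the 3 genes with most counts were 1.97 for Orc6, 1.31 for Orc5 and 1.13 for Orc2, all with overlap. Regulators of licensing gave 1.03 over 11 of 14 genes. Ddb1, a part of the ubiquitin ligase that destroys Cdt1, was lower in all 5 (ratio 3.17), as was Lrwd1, a partner of the origin recognition complex (3.10), and Skp2, the F-box protein of another ligase that targets Cdt1, was higher in all 5 (0.181). Dtl, the receptor by which that first ligase recognises Cdt1 on PCNA, overlapped between the sets (0.755), and so did Mcmbp, which binds the MCM proteins (1.14). Firing factors gave 1.01 over 12 of 15 genes, with Cdc45, the partner of the ring in the active helicase, lower in all 5 (3.43) and Cdk2, the kinase that triggers firing, higher in all 5 (0.569). Gins3 (0.465) and Donson (0.524), which act in the assembly of the active helicase, were higher in all 5 as well. Cyclin A2 (Ccna2, 1.74) and Topbp1, a firing factor (1.12), overlapped. In these 3 lists the counts were near or under those shares of all rows, and the medians were near 1.06. With TMM scaling 1, 4 and 3 genes of these lists in turn were lower in all 5, beside 34.8% of rows. Higher in all 5 were then 1, 1 and 2 genes, beside 14.6% of rows. The medians were 1.55, 1.39 and 1.37, beside 1.44 for all rows.

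Genes of the fork and its polymerases gave a median ratio of 2.15 over 30 of 36 genes, with 16 lower and 1 higher in all 5 Lars2-rich runs. Rfc2, a subunit of the complex that loads PCNA, had 54.3 to 80.0 CPM against 152 to 325 CPM (ratio 3.18), while Rfc1, the large subunit of that complex (1.32), and Top2a, a topoisomerase (1.70), overlapped. Rpa3, of the single-strand binding complex, had a ratio of 7.40. Pold2, a subunit of the polymerase that PCNA holds, had 298 counts in the Lars2-poor runs and 0 in the Lars2-rich runs, which makes it at least 8.27-fold lower there against a floor of 3 counts over the 5 runs. The 1 gene higher was Wdhd1, which ties the helicase to the primase (0.273). With TMM scaling the fork list had 21 genes lower and 0 higher in all 5, with a median of 2.91, so the place of Wdhd1 depended on the scaling. Nucleotide supply gave 2.24 over 8 of 8 genes, with Dut (4.44), Rrm1 (2.61) and Rrm2 (2.34) among the 4 lower in all 5. Dctpp1 completed these 4 on 572 against 1 counts, and Tyms, which makes thymidylate, was the 1 higher (0.368).

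The list of E2F and RB factors, which also holds Uhrf1, had lower ratios. Whether they act on the helicase genes in these cells was not tested. Over 14 of 14 genes the median was 0.587, with 6 higher and 1 lower in all 5 Lars2-rich runs. With TMM scaling it was 0.795 beside 1.44 for all rows, with 4 higher and 2 lower. E2f2 had 712 to 943 CPM there against 249 to 475 CPM in the other runs, and E2f1, E2f3, E2f7, Tfdp2 and Rbl1 were the other 5. E2f4 was the 1 lower (1.90), and Uhrf1, which guides the copying of DNA methylation, overlapped (1.90). In the edgeR comparisons 0 genes of these 6 lists passed the adjusted threshold. In KO IP against KO input, the list medians on the log2 scale were 0.81 for the origin recognition complex, 0.20 for licensing regulators, 0.23 for firing factors, 1.00 for fork genes, 1.21 for nucleotide supply and −0.47 for E2F and RB factors, beside 1.98 for the 10 genes.

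**Figure D4:**
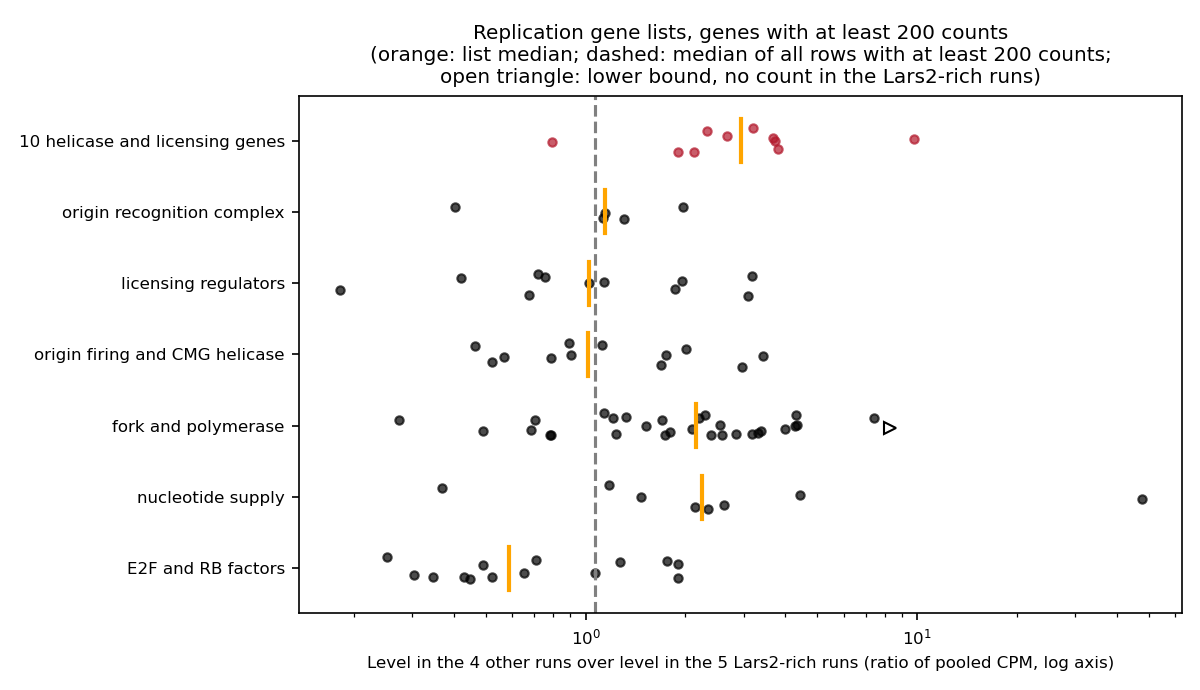
Ratio of pooled CPM in the 4 other runs over the 5 Lars2-rich runs (x axis, log scale) for each gene with at least 200 counts, by list (y axis); orange bars are list medians, the dashed line is the median of all rows (1.06) and the open triangle, marked as a lower bound, is the ratio of Pold2 with a floor of 3 counts. The medians run from 0.587 for the E2F and RB factors to 2.94 for the 10 helicase and licensing genes.

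The rows whose levels over the 9 runs were most like the mean of the 10 genes, by Pearson r on log2(CPM + 5), were Aldh9a1 (0.994), Txndc12 (0.992), Sdhd (0.992), Nubp2 (0.990) and Tmed9 (0.989). They encode an aldehyde dehydrogenase, an endoplasmic reticulum thioredoxin, a subunit of respiratory complex II, a factor of cytosolic iron-sulfur assembly and a cargo receptor of the early secretory pathway. Each was lower in the Lars2-rich runs without overlap, as Aldh9a1 with 24.5 to 50.4 CPM against 73.4 to 170 CPM. With a pseudocount of 1 or of 20, 4 of the 5 stayed among the 5 most alike. The 9 points share depth and Lars2 share, so these values describe the runs.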

How the data were processed

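The authors deposited raw read counts per 3′ UTR, 1 column per run; per the submitters' processing notes the tools were featureCounts, R 3.5.1, Bowtie2 2.2.2 and Bowtie 1.2.3 on mm10, and the sources used here give no annotation, strand setting or rule for multiply matched reads. The genes and the lists were chosen with earlier results of these data known, and part of the workflow follows that earlier work.

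Rows carry an Ensembl transcript and a UTR start. They were named through the RefSeq genes of GRCm38 by position and by the falling alphabetical order of rows within a chromosome. The UTR start equalled a RefSeq gene start in 3754 rows, against 3 after a shift by 1000000 bases. A symbol was given to 18137 rows, of which 2084 were named in a second pass that allowed 2000 bases outside the gene. Columns without a sample numbered 0.

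CPM were computed without the Lars2 row. Shares have exact Clopper-Pearson intervals, the Lars2 shares aside, and ratios of 2 runs conditional exact binomial intervals. Runs of a library were summed, and edgeR 4.0.16 (R 4.3.3) was used with TMM factors, its own filter on low counts, group means and the quasi-likelihood test. SE is the fold change divided by the square root of F. The alternatives were DESeq2 1.42.0, limma voom 3.58.1, other factors, no filter, the Lars2 row kept, other runs, libraries left out and a replicate block. The code was tested on simulated data. Named genes are the 10 members, members of each list past the threshold or else the 3 with most counts, and the 5 rows most alike, and any further gene was chosen after its values were seen.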

Additional observations from a re-analysis of the deposited data

How the results depend on the processing

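The Lars2-rich runs limit the precision: with 3 counts worth 9.45 to 15.6 CPM there, Mcm7 and Gmnn rest on 0 to 8 counts a run. With 1 library per IP group, no spread of an IP was measured. Rows passing an adjusted p of 0.05, given for WT IP against WT input, KO IP against KO input and KO input against WT input in turn, numbered 43, 196 and 24 by DESeq2 and 94, 594 and 84 without the filter. With a replicate block they numbered 536, 1977 and 2; the numbers D1 and RIP8 are not said to pair the samples, and the deviations of the 2 pairs of inputs correlated at 0.196. With the other run of each library they numbered 3774, 1770 and 0, and 537 in WT IP against KO IP. Without the run WT input RIP8 batch 2, an alternative added after seeing the data, they numbered 3259, 2210 and 0. Leaving out 1 input library in turn gave 0 to 1186 for the interaction, 0 to 22 for WT IP against KO IP, and 0 to 2639, 0 to 2984 and 0 to 2343 for the other 3. By edgeR, RLE factors, no factors, the Lars2 row kept, batch 2 runs alone and the runs without WT IP D1 batch 2 called 0 rows in the 5 comparisons, as did limma voom. The alternative without WT IP D1 batch 2 was likewise added after seeing the data. Where an alternative dropped the run WT input RIP8 batch 2, all inputs were Lars2-rich, and IP against input followed the Lars2 split.

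Changes under the alternatives were counted for all members in the interaction, KO IP against KO input and KO input against WT input. In WT IP against WT input and WT IP against KO IP they were counted for Mcm4 and Cdt1 alone. Of these log2 fold changes, 435 values kept direction and were not called. Of the rest, 60 newly passed the threshold and 15 reversed. Calls and reversals of the other members in those last comparisons, some of them given above, are not among these numbers. The 435 include values to which DESeq2 gave no adjusted p. The cause of the changes was not tested. Cdc6 in KO IP against KO input was −0.20 without factors, −0.033 with batch 2 runs alone and −0.040 to 0.21 with a library left out. Mcm3 in KO input against WT input was 0.19 with the other run, 0.17 without the run WT input RIP8 batch 2 and −1.38 to 0.84 with a library left out, where Mcm6 spanned −1.95 to 0.0064, and Mcm3 in the interaction −1.83 to 0.39. Cdt1 in WT IP against KO IP was −0.21 without factors and −2.82 with batch 2 runs alone, and −2.07 with batch 2 runs alone in WT IP against WT input. Mcm4 in WT IP against WT input was 0.29 with the other run, 0.26 with the block, 0.095 without the run WT input RIP8 batch 2 and −1.26 to 0.67 with a library left out. The CPM of a member in a run moved beyond its counting interval in 26 of 90 values with the Lars2 row kept and in 32 with TMM scaling.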
